A study of Vitis vinifera with 165 samples.

Results

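The 100 gene models described here were the most evenly expressed ones in ripening Pinot noir berries over 3 seasons and both levels of cluster thinning. They were picked from the measured values themselves. Of 29971 gene models, 2921 reached an RPKM (read count divided by gene length and by library size) of 20 in every one of 165 libraries. The members are the 100 of these, or 3.42%, with the smallest standard deviation of log2(RPKM + 1) over all libraries. They make up 0.334% of all gene models.

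Pinot noir is a red cultivar of grapevine, Vitis vinifera; the vines were of clone FPS 23, grafted on Freedom rootstock, in a vineyard near Modesto. After fruit set the vines lost either 50% or 75% of their clusters, and berries were followed through 2012, 2013 and 2014 by days from veraison, the onset of softening and colouring. The groups were set by season, thinning level and day, with 3 libraries in each of 55 groups: 48 libraries in 2012 (day -28 to day 42), 54 in 2013 (day -14 to day 37) and 63 in 2014 (day -14 to day 49). There were 81 libraries at 50% thinning and 84 at 75%, and both levels were sampled on 26 matched days. Every library came from a pool of 60 berries, taken from 6 clusters, with the seeds removed, so the values describe pooled pericarp and not single berries. An unthinned control named in the labels was not analysed here. The vines stood in 9 rows, with 3 rows per treatment. The labels do not say what a replicate number stands for, so pools of different days could come from the same rows. The main tests took each pool as separate. The p-values below therefore measure the spread between these pools and not between rows. The files and the reference table pair none of the gene model IDs with a name (0 of 29971 matched), so neither the roles of the members nor the tissue label, by its marker genes, could be examined.

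Evenly expressed genes are what quantitative PCR and other relative assays use as internal references. The genes commonly chosen for this serve tasks that every cell carries out all the time, such as the cytoskeleton, protein synthesis and turnover, and membrane traffic. Ripening is a demanding setting for such genes. At veraison a berry turns from a small, hard, acid and green organ into a soft, sweet and coloured one, and much of its transcriptome is reset. RPKM is a share of a library's reads, so an even RPKM says that a transcript kept its share of the RNA pool; a change in the number of cells of a type and a change in RNA per cell cannot be told apart in such pools.

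The total RPKM of a library ran from 876732 to 1405120 with a median of 981285, and the relative depth, read from the spacing of low RPKM values, from 0.557 to 1.93 with a median of 1. In all, 3 libraries of 2012 stood apart over the members. The mean absolute deviation of the members from their own means was 0.347 on the log2 scale in the library of 75% thinning, day 21, replicate 2. It was 0.317 at 75%, day 0, replicate 2 and 0.248 at 50%, day -18, replicate 1, against 0.0944 in the median library. In the first of these, 94 members were more than 0.1 (log2) below the other replicates of the group, and its median shift over all 2921 gene models past the RPKM minimum was -0.32. The second had the highest total RPKM of all libraries, 1405120, with 48 members below and 32 above the other replicates by over 0.1. The third had 77 members below by that margin. Their relative depths were 0.879, 1.04 and 0.973. These libraries held the lowest value of 38, 13 and 16 members, in that order. The part of these 3 libraries in the results was not tested beyond giving values with and without them. Other 2012 libraries were low as well and were kept when the 3 were left out. At 50%, day 0, replicate 2, the mean absolute deviation was 0.179, with 96 members below the other replicates by over 0.1 and 0 above. At 75%, day -18, replicate 2, it was 0.149, with 86 below and 0 above.

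The steadiest gene model was VIT_05s0124g00360. Over the 165 libraries its RPKM was 133 at the lowest, 165 at the median and 193 at the highest, a mean of 164.5 ± 10.4 (SD) and a coefficient of variation of 6.33%. VIT_04s0044g02040 came next, with 23.5, 33.5 and 40.9 RPKM, followed by VIT_18s0001g12760 with 62.9, 73.2 and 91.9. The SDs of log2(RPKM + 1) of these 3 were 0.091, 0.105 and 0.106. All 3 stayed within a factor of 2 between their lowest and highest library. At the other end of the list, rank 100 was VIT_16s0039g01860 with an SD of 0.152 and RPKM from 60.6 to 143. The first gene model left out, VIT_08s0007g07950, had an SD of 0.153 and RPKM from 138 to 223, so the list ends at no gap.

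Over all members the SD ran from 0.091 to 0.152 with a median of 0.137. The median over all gene models past the minimum was 0.323, which was 2.35 times as large, and the highest was 2.19. These values chose the members and are a description. The highest library was less than 2 times the lowest for 85 members and for 282 of the 2921 gene models past the minimum. Without the 3 libraries that stood apart this held for all 100 members and for 501 gene models, and the ratio of highest to lowest ran from 1.40 to 1.94 among the members.

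**Figure D1:**
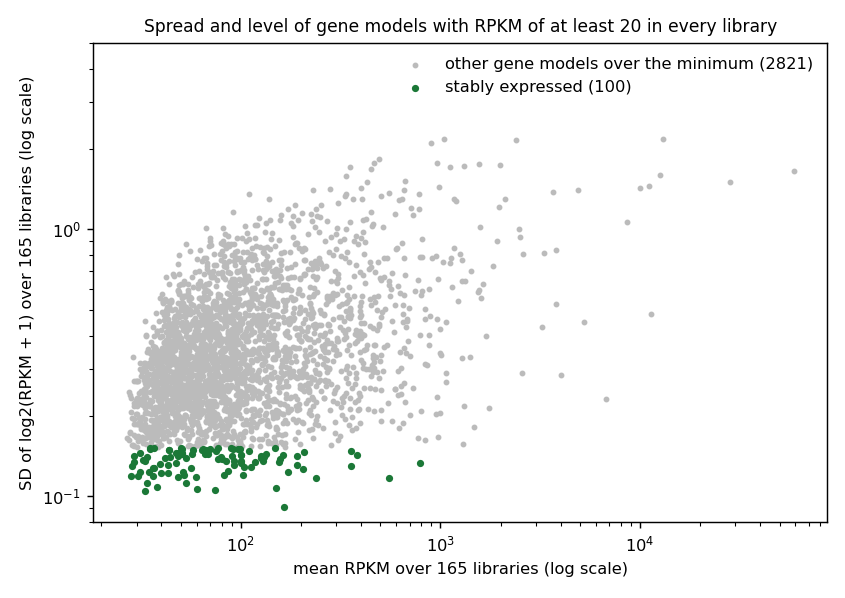
Spread of each gene model, as the SD of log2(RPKM + 1) over 165 libraries (log scale), against its mean RPKM (log scale); green points are the 100 stably expressed gene models and grey points the other 2821 that reached an RPKM of 20 in every library. The green points lie between SDs of 0.091 and 0.152 by the rule, mostly at moderate levels, up to a mean RPKM of 793.

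The members were moderately expressed. Their mean RPKM ran from 28.1 to 793 with a median of 67.6, below the median of 84.0 over all gene models past the minimum. A mean under 50 RPKM was found for 33 members and for 22.0% of the gene models past the minimum; a mean over 100 RPKM for 30 members and 40.2%. The highest was VIT_01s0127g00440, which had 635 RPKM in its lowest library and 1050 in its highest. The lowest was VIT_16s0098g01850, with 22.8 and 32.9. Added up, the members gave 7921 to 11180 RPKM per library, 1.02% of all RPKM. The numbers that follow VIT_ in the member IDs took 20 distinct values, and no pair of members stood next to each other in the table.

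Part of the variation lay between replicates of 1 group. The SD between replicates had a median of 0.0877 (log2) over members and 0.127 over gene models past the minimum. Replicates accounted for a median of 29.0% of a member's variation, from 14.3% to 51.4%, against 10.9% over the gene models past the minimum, and in 3 members they accounted for over 50%. The members also moved together to a degree. A first principal component held 24.2% of their variation and all 100 loaded on it with the same sign; the second held 14.9%. Over all gene models past the minimum the first component held 61.7%. The correlation between pairs of members over the 165 libraries, which share the library's total and depth, had a median of 0.21 and ran from -0.53 to 0.79.

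The members' common level differed between sampling days, within a narrow band. On day 21 of 2012 the median member was 0.11 (log2) below its own mean and 86 of 100 members were below it. Without the libraries that stood apart the median was -0.060 with 69 below. On day 14 of 2013 the median was -0.10 with 86 below, and on day 21 of 2013 it was -0.06 with 81 below. On day 21 of 2014 it was -0.06 with 71 below. High medians were also found far from veraison. Day -28 of 2012 was at 0.06 (67 above), day 42 of 2012 at 0.05 (65 above) and day 49 of 2014 at 0.05 (66 above). The highest median of each season fell on or shortly before day 0. On day -9 of 2012 the median member was 0.08 above its own mean (75 above), on day -7 of 2013 0.07 (79 above) and on day 0 of 2014 0.05 (71 above).

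The label sugar content on the highest day of each season averaged 5.07, 3.96 and 1.72 g per 100 ml. Day 0 of 2014 therefore had less sugar than day 0 of 2012 and 2013, which averaged 12.3 and 10.5, and was close to day -6 of its own season, at 1.74. This common movement depended on how libraries were put on 1 scale. Scaling libraries to a common median ratio levels the median of all gene models past the minimum, members included. Movement that the members share with that pool is thus removed by design. With this median-ratio scaling, the members' medians were -0.07, -0.01 and 0.00 on these 3 highest days. They were -0.02, 0.02 and 0.00 on day 21 of 2012, 2013 and 2014. With quantile normalization the median on day 21 was 0.01, 0.03 and 0.04, above the members' own means. The early 2012 and 2013 days were below them at -0.07 and -0.05, and only day 0 of 2014 kept its sign, at 0.01.

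**Figure D2:**
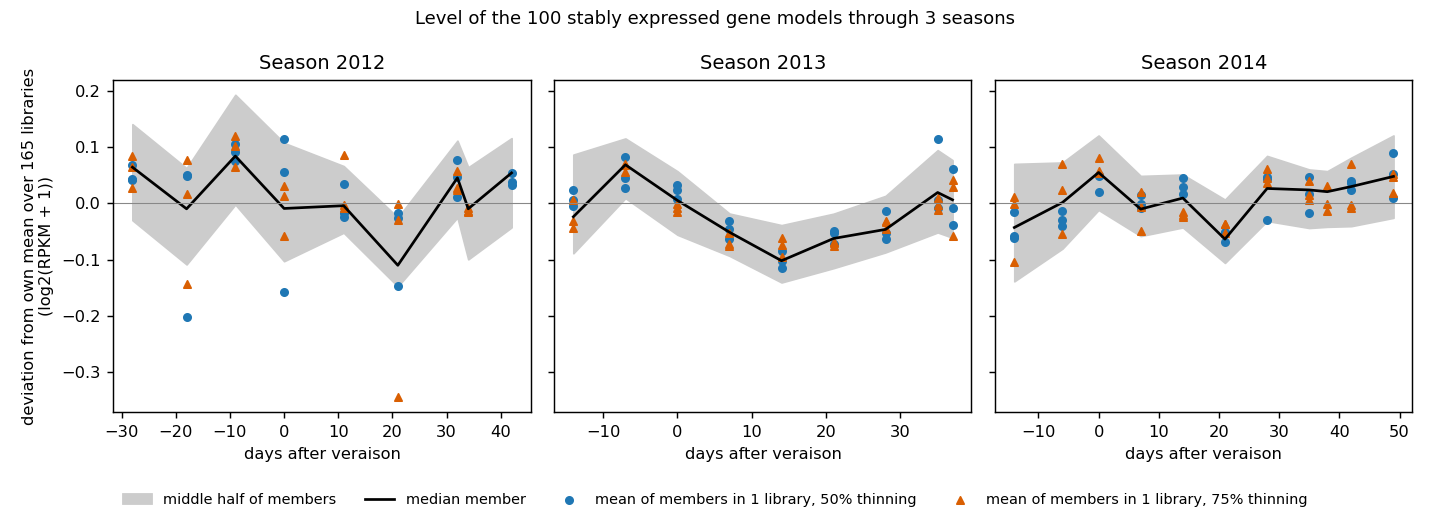
Deviation of the 100 stably expressed gene models from their own mean of log2(RPKM + 1), by days after veraison in 2012, 2013 and 2014; the line is the median member, the grey band runs from the lower to the upper quartile of members, and points are the mean of members in 1 library at 50% (circles) or 75% (triangles) thinning. The median member stayed between -0.11 and 0.08, with single 2012 libraries as low as -0.34.

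From the green stage (day -18 in 2012, day -14 in 2013 and 2014) to day 21, the members drifted little. The median absolute change, averaged over seasons, was 0.11 on the log2 scale, against 0.458 over gene models past the minimum and 0.586 over the 20460 gene models tested. The gene models past the minimum thus changed 4.17 times as much as the members, which is what a choice by small spread selects for. The largest change of a member was 0.38 averaged over seasons and 0.48 in 1 season. With quantile normalization the median absolute change of the members was 0.186, against 0.478 over gene models past the minimum. Of the members, 34 were higher on day 21 and 66 lower, with a median of -0.05; 19 were higher and 40 lower in every season and 41 were mixed. The direction was a matter of scale. With median-ratio scaling 58 were higher and 42 lower, and with quantile normalization 83 were higher and 17 lower. The median of all gene models tested was itself -0.30 in RPKM, -0.23 with median-ratio scaling and 0.06 with quantile normalization.

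VIT_04s0008g02930 was the member with the largest negative change. In 2013 it had 112, 118 and 125 RPKM at the lowest, median and highest of the 6 green-stage libraries and 82.1, 86.4 and 92.5 on day 21. In 2014 it had 106, 110 and 114 and then 80.3, 85.4 and 88.2, and in 2012 81.8, 106 and 116 and then 66.0, 85.2 and 88.3. The green and day 21 libraries did not overlap in 2013 and 2014 and overlapped in 2012. The change was -0.33, -0.44 and -0.37 in 2012, 2013 and 2014, and was lower under all scalings, at -0.29 on average with median-ratio scaling and -0.21 with quantile normalization. After day 21 its level was higher again, as the plot of single libraries shows.

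VIT_18s0001g07130 was the next, with 57.1, 65.4 and 73.9 RPKM over the 18 green-stage libraries and 40.3, 52.8 and 55.3 on day 21. Its 2 sets of libraries did not overlap, the only member of which this held over the 3 seasons together; the share was 34.0% among all gene models tested and 36.6% past the minimum. Its mean change of -0.36 shrank to -0.11 with quantile normalization.

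Of the members that were higher on day 21, VIT_08s0007g07300 stood first, with a mean change of 0.24. Its green-stage libraries had 25.1, 26.8 and 27.9 RPKM in 2014 and those of day 21 had 35.0, 37.0 and 39.2, so that the groups were apart. In 2013 they had 33.5, 34.8 and 36.4 against 34.3, 36.0 and 37.5 and overlapped, as they did in 2012. The change was 0.21, 0.05 and 0.47 in the 3 seasons. VIT_03s0063g02100 was next, with 117, 140 and 159 RPKM in the green stage and 119, 167 and 182 on day 21, a mean change of 0.23. Its changes were 0.15, 0.31 and 0.21, and both gene models were higher on average under every scaling.

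Within a season, the 6 green-stage and 6 day 21 libraries did not overlap for 6 members in 2012 (1 higher, 5 lower), where this held for 47.6% of all gene models tested and 47.8% past the minimum. It held for 45 members in 2013 (12 higher, 33 lower) against 68.5% and 75.0%, and for 37 in 2014 (16 higher, 21 lower) against 67.2% and 74.9%. The groups were apart in opposite directions in different seasons for 2 members, as they were for 1.32% of all gene models tested and 2.02% of those past the minimum. Since these libraries chose the members, nothing is read from these shares.

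**Figure D3:**
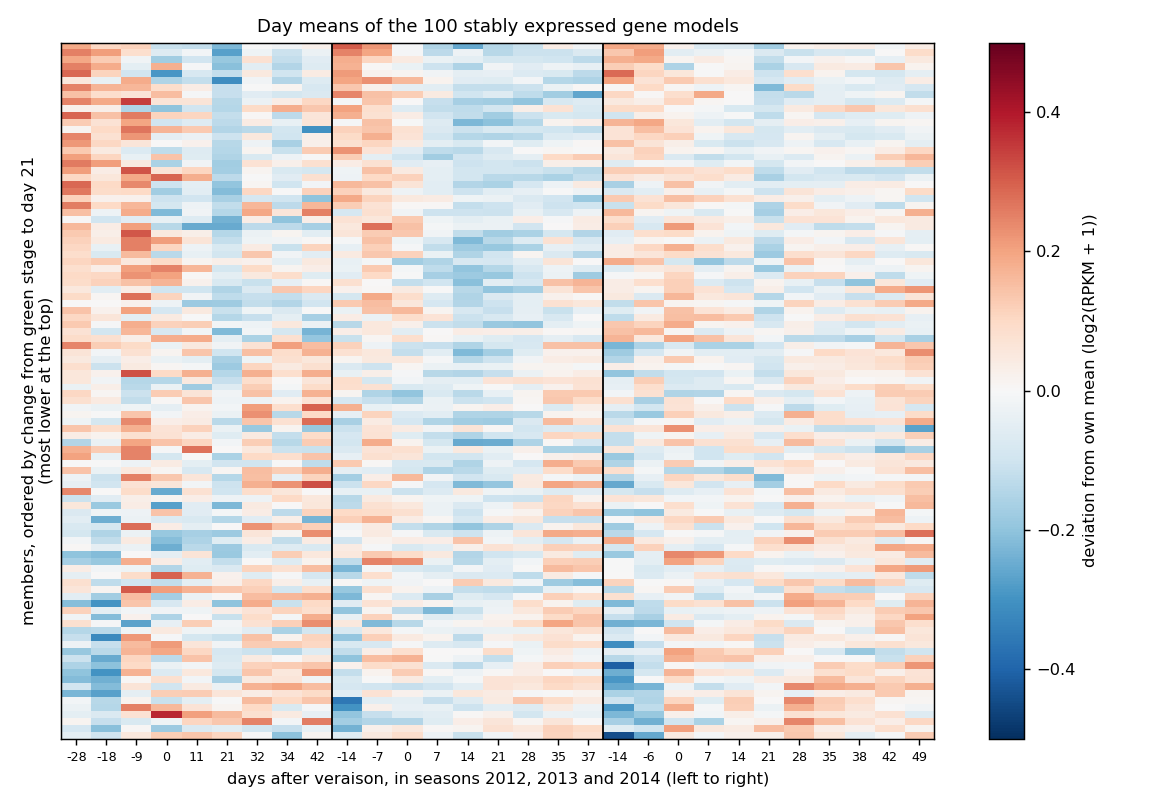
Day means of each of the 100 stably expressed gene models as deviations from its own mean of log2(RPKM + 1) (red above, blue below), in rows ordered by the change from the green stage to day 21 and in columns by days after veraison in 2012, 2013 and 2014. The rows at the top are red in the early columns and the rows at the bottom blue, in each season, with changes of up to 0.48 from the green stage to day 21 of a season.

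Between seasons the members also differed little. Over days 0 and 21, the range of the 3 season means had a median of 0.119 (log2) over members and 0.212 over gene models past the minimum. Day 0 of 2014 had less sugar than that of 2012 and 2013, so this range mixes season with ripening stage. The season with the highest mean was 2012 for 30 members, 2013 for 21 and 2014 for 49; the lowest was 2012 for 57, 2013 for 32 and 2014 for 11. Without the 3 libraries that stood apart the low seasons evened out, with 41 members lowest in 2012 and 42 in 2013, and the median range was 0.0898. The excess of high values in 2014 was not kept without those libraries either, with 39 members highest in 2012 and 40 in 2014. Under median-ratio scaling 42 members were highest in 2013 and 30 in 2014. Over the 7 days shared by 2013 and 2014, 80 members were higher in 2014, by a median of 0.04, as were 61.7% of gene models past the minimum; with median-ratio scaling 56 were higher, by 0.01. No member had all libraries of one season above all of another. Among all gene models tested the percentage that did was 0.968 for 2014 against 2013, 0.709 for 2014 against 2012 and 0.00489 for 2013 against 2012. Past the minimum it was 0.171, 0.137 and 0.0, in the same order.

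The widest season range of a member, 0.329, was that of VIT_07s0005g04300. On days 0 and 21 its 12 libraries had 42.0, 59.7 and 64.2 RPKM at the lowest, median and highest in 2012, then 63.7, 68.4 and 78.4 in 2013 and 66.5, 72.0 and 80.0 in 2014. The 2012 libraries were the low ones, overlapping those of 2013 only between 63.7 and 64.2 RPKM and those of 2014 not at all; without the libraries that stood apart, 2012 was still 0.28 below the highest season. In VIT_07s0005g04750 the 2012 libraries were instead the high ones, with 215, 237 and 350 RPKM in 2012 against 191, 202 and 216 in 2013 and 196, 207 and 218 in 2014. Its range was 0.287, and 0.254 without those libraries.

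Thinning level made little difference. Differences over the matched days were averaged over seasons before their size was taken. The median absolute difference between 75% and 50% thinning was 0.00741 (log2) over members and 0.0177 over gene models past the minimum. Within seasons it was larger, at 0.0188, 0.0138 and 0.0121 over members in 2012, 2013 and 2014. Past the minimum it was 0.0341, 0.0259 and 0.0195, in the same order. Leaving out a replicate number gave averaged values of 0.0103 to 0.0123 over members. The ripening and season values rest on fewer libraries and on other measures, so the sizes are not ranked. In all, 39 members were higher at 75% and 61 lower, and only 7 were higher and 16 lower in every season; with median-ratio scaling 56 were higher and 44 lower. The largest difference was -0.05, in VIT_12s0059g02650. Its 78 libraries at 50% had 42.5, 50.7 and 67.7 RPKM at the lowest, median and highest, and its 78 at 75% had 38.2, 50.1 and 69.6, ranges that overlapped nearly throughout. The difference was -0.08 in 2012, -0.04 in 2013 and -0.03 in 2014. The largest difference the other way was 0.04, in VIT_08s0007g00010, with 96.6, 146 and 175 RPKM at 50% and 111, 152 and 177 at 75%.

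**Figure D4:**
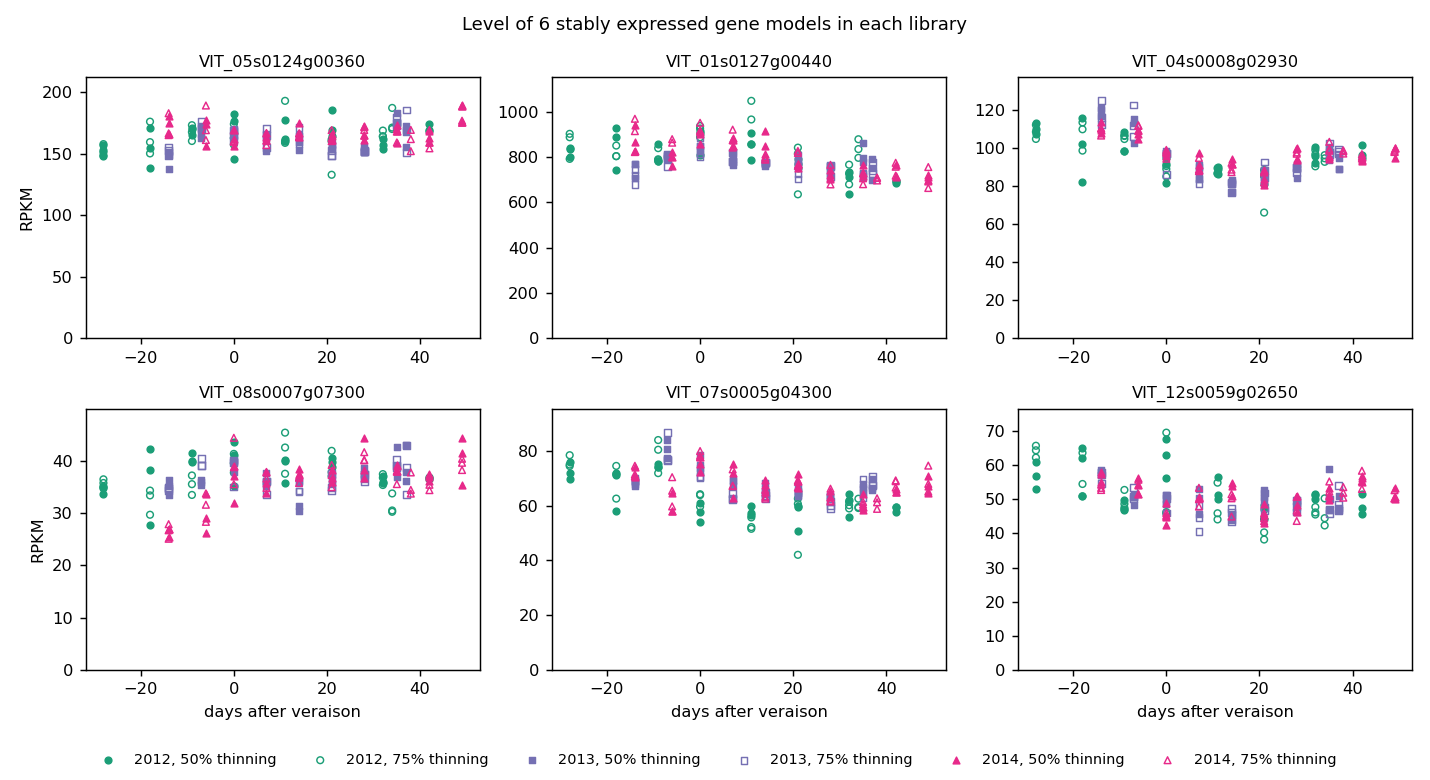
RPKM of 6 stably expressed gene models in each of 165 libraries by days after veraison, with season shown by colour and marker and thinning by filled (50%) or open (75%) markers. They are the steadiest and the highest member, and those with the largest negative and positive ripening change and the largest seasonal and thinning difference; VIT_05s0124g00360 stayed between 133 and 193 RPKM, while VIT_04s0008g02930 was lowest around days 14 and 21.

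Because the members were chosen for small spread over all libraries, drift could be tested only where libraries had no part in the choice. The same rule was therefore applied to the libraries of 2 seasons, and the 100 gene models it gave were tested in the season left out, with limma on log2(RPKM + 1) and Benjamini-Hochberg adjustment over all gene models tested. Of the 100 chosen without 2012, 2013 and 2014, 57, 78 and 74 were members. Gene models chosen as stable were steadier than most in the season left out as well. Their median SD was 0.190, 0.118 and 0.120 in 2012, 2013 and 2014, against 0.367, 0.280 and 0.301 over gene models past the minimum. Of the 100, 59, 69 and 71 were in the lowest decile of SD, and 79, 100 and 99 stayed at an RPKM of 20 or more in every library.

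Small changes through ripening were common among them. In 2012, 40 of the 100 changed from the green stage to day 21 (limma, adjusted p under 0.05), 6 higher and 34 lower. The rate was 74.5% over all gene models tested (21.9% higher, 52.5% lower) and 71.2% over those past the minimum in the choosing seasons. In 2013, 68 changed, 19 higher and 49 lower, against 84.1% of all tested (27.6% higher, 56.6% lower) and 85.7% past the minimum. In 2014, 62 changed, 38 higher and 24 lower, against 81.8% of all tested (27.9% higher, 53.9% lower) and 86.2% past the minimum. The changes were small. The median absolute change of the 100 was 0.16, 0.12 and 0.13 (log2) in the 3 seasons, against 0.46, 0.47 and 0.50 over gene models past the minimum, and 1, 0 and 4 of the called changes reached 0.5, where 57.9%, 58.2% and 57.8% of all gene models tested did so.

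The split by direction moved with the scale, to 13 higher and 19 lower in 2012, 42 and 31 in 2013 and 31 and 34 in 2014 under quantile normalization. Under median-ratio scaling it was 10 and 26, 31 and 39, and 31 and 34. The 2012 count was 15 without the libraries numbered replicate 3, against 65.7% of all gene models tested, and 48 without the 3 that stood apart, against 78.4%.

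The steadiest gene model of each choice was tested in the season that had no part in it. Chosen without 2012, it was VIT_12s0028g00830, a member. In 2012 it had 47.0, 61.4 and 70.9 RPKM at the lowest, median and highest of the green-stage libraries and 35.6, 51.1 and 54.8 on day 21, groups that overlapped. It was lower on day 21 by limma, with a log2 change of -0.31 ± 0.10 (SE) and an adjusted p of 0.00393. The 35.6 was its lowest value in any of the 165 libraries. Both groups hold a 2012 library that stood apart, and no value without these is given for this gene model. Chosen without 2013, and again without 2014, it was VIT_05s0124g00360. It had 138, 150 and 155 RPKM in the green stage of 2013 and 148, 153 and 158 on day 21, a change of 0.04 ± 0.03 (adjusted p 0.314 by limma). In 2014 it had 165, 171 and 183 and then 160, 164 and 169, a change of -0.07 ± 0.04 (adjusted p 0.0692 by limma). The groups overlapped in both seasons, and these misses do not show that its level was the same. The members named above for their drift were picked on the seasons in which they drifted, so no p is given for them.

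Between seasons, the gene models were chosen in the season left out of the comparison. From 2013 to 2014, 65 of 100 differed (49 higher in 2014, 16 lower), against 57.7% of all gene models tested (28.4% higher, 29.3% lower) and 67.5% of those past the minimum. From 2012 to 2014 it was 72 (60 higher, 12 lower), against 58.8% of all tested (42.9% higher, 15.9% lower) and 64.1% past the minimum. From 2012 to 2013 it was 73 (56 higher, 17 lower), against 57.0% of all tested (42.8% higher, 14.1% lower) and 64.9% past the minimum. The counts thus lay near or above these shares. The median absolute difference was 0.05, 0.16 and 0.15 (log2) over the 100, against 0.08, 0.19 and 0.18 over gene models past the minimum.

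Differences of 0.5 or more were called for 0, 5 and 1 of the 100, against 5.97%, 15.4% and 11.9% of all gene models tested. The split was 67 higher and 6 lower from 2013 to 2014 with quantile normalization, and 42 and 25 from 2012 to 2014 with median-ratio scaling. Without the libraries numbered replicate 2, which include those of days 0 and 21 of 2012 that stood apart, 45 differed between 2012 and 2014 (28 higher in 2014, 17 lower), against 41.4% of all tested and 45.5% past the minimum. Between 2012 and 2013 it was 40 (21 higher in 2013, 19 lower), against 38.1% and 45.8%. Leaving out only the 3 libraries gave 58 (42 higher, 16 lower), against 52.6% and 56.7%, and 53 (37 higher, 16 lower), against 49.6% and 55.6%.

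For thinning, limma called 0 of the 100 in each of 2012, 2013 and 2014, at an adjusted p under 0.05. The percentage called was 0.215, 1.56 and 0.0 among all gene models tested and 0.0563, 2.75 and 0.0 among those past the minimum. An unadjusted p under 0.05 (limma) was found for 0, 12 and 13 of the 100. The share of all gene models tested at that threshold was not computed, so nothing is read from these counts. The median absolute difference was 0.02, 0.01 and 0.01 (log2), and the largest 0.09, 0.09 and 0.07. The 2012 count was 2 without the libraries numbered replicate 2, where 2.74% of all gene models tested were called, and 3 without the 3 libraries that stood apart, where 2.83% were. The 2013 count was 1 without the libraries numbered replicate 2, against 1.64% of all tested.

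**Figure D5:**
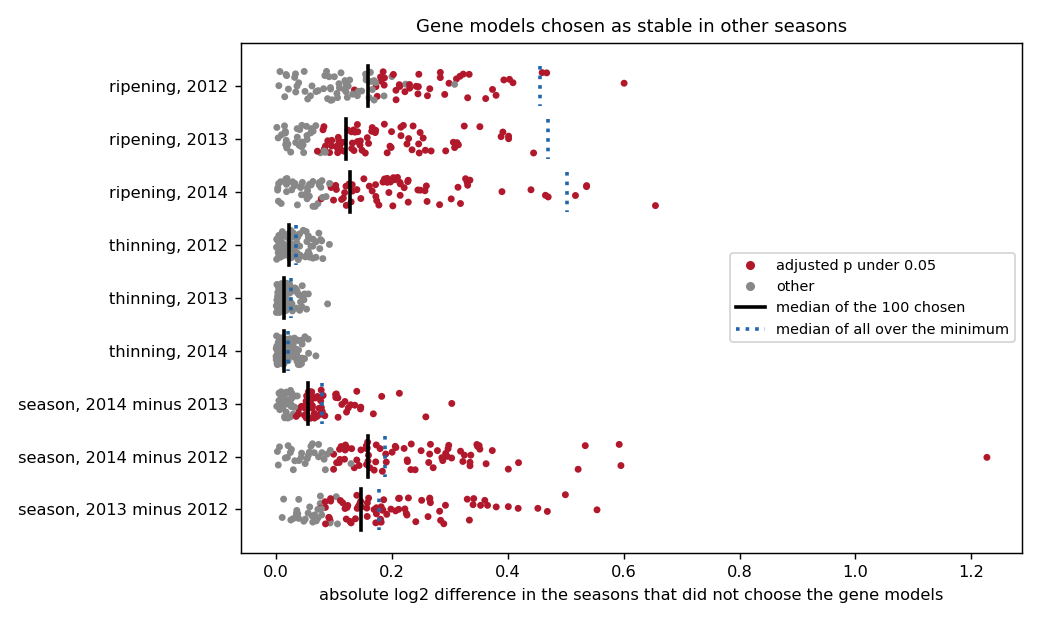
Absolute log2 differences of gene models chosen as stable in other seasons, for the change from the green stage to day 21, for 75% against 50% thinning and for pairs of seasons; red points had a limma adjusted p under 0.05, black bars are the medians of the 100 chosen and dotted blue bars the medians of all gene models past the RPKM minimum. For ripening the black bars lie at 0.16, 0.12 and 0.13 and the dotted ones at 0.46, 0.47 and 0.50, while for seasons they lie close together.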

How the data were processed

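The authors deposited RPKM values, per the file headers, for 29971 gene models in 165 libraries. Per the submitters' processing notes, TopHat2 2.0.6 and Cufflinks 2.0.2 were used; build, annotation and settings are not given in the sources used here. Per the labels' protocols, libraries were not strand-specific, so overlapping antisense genes could not be told apart. Every column was mapped by its name to a sample. Read counts are not given, so no counting error was computed; relative depth was read from the steps of low RPKM values of 3513 gene models, where 96.3% of 13530 library pairs came out within 0.05 (log2).

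Fits used limma 3.58.1 in R 4.3.3 on log2(RPKM + 1), with a pseudocount of 1, an intensity trend and 1 mean per group, over gene models with RPKM of at least 1 in 3 libraries of the fit. Fold changes on this scale understate those of low genes. Each fit held only libraries that had not chosen the gene models, except the alternative of 1 fit over all 55 groups. The fits were tested on simulated data. The members and lists were chosen with earlier results of these data known. Gene models named are the steadiest, those at the end of the list, the highest and lowest, and those with the largest drift; lists by role could not be built without names. Alternatives changed the pseudocount, scaling, minimum, measure of spread and libraries.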

Additional observations from a re-analysis of the deposited data

Results flagged for a closer look

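A pair of members changed in opposite directions through ripening in different seasons, with every day 21 library on one side of every green-stage library in both; the difference between seasons was not tested. The same was found for 1.32% of all gene models tested and 2.02% of those past the minimum, so 2 of 100 members is near the usual share. VIT_17s0000g08490 had 36.1, 37.8 and 40.1 RPKM at the lowest, median and highest of 6 green-stage libraries of 2013 and 32.5, 33.7 and 35.9 on day 21, a log2 change of -0.157. In 2014 it had 28.1, 30.5 and 34.6 and then 35.1, 35.7 and 38.3, a change of 0.221. In 2012 the groups overlapped, at 27.7 to 40.5 and 30.9 to 36.4 RPKM. VIT_14s0083g00450 had 75.0, 77.8 and 80.1 RPKM in the green stage of 2013 and 67.6, 69.3 and 73.7 on day 21, a change of -0.150. In 2014 it had 61.5, 64.5 and 69.9 and then 71.2, 76.3 and 78.2, a change of 0.202, and in 2012 the groups overlapped. With quantile normalization both changes were positive in 2013 too, at 0.15 and 0.06. With median-ratio scaling they were -0.06 and -0.05.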

How the results depend on the processing

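Of the 100 members, 43 were chosen again with quantile normalization, 47 with a minimum RPKM of 50, 57 without season 2012, 73 with median-ratio scaling and 82 without the 3 libraries that stood apart, an alternative chosen after seeing the data. The median ripening drift of members was 0.186 with quantile normalization and 0.0933 with median-ratio scaling. With 1 fit over all 55 groups, 62 of the 100 gene models chosen without 2012 changed through ripening, against 77.9% of all tested; that fit also holds the libraries that chose them. A least absolute change of 0.5 left 1, 0 and 4 ripening calls in 2012, 2013 and 2014, where 57.9%, 58.2% and 57.8% of all tested were called. It left 0, 5 and 1 season calls for 2014 against 2013, 2014 against 2012 and 2013 against 2012. The shares of all tested were 5.97%, 15.4% and 11.9%. Thinning calls in 2012 were 3 without the 3 libraries that stood apart, against 2.83% of all tested. In 2013 they were 1 with quantile normalization, against 1.5%, and 2 with a minimum RPKM of 50, against 1.56%. Leaving out each replicate number in turn gave 15 to 43, 53 to 57 and 53 to 56 ripening calls. The shares of all tested were 65.7% to 74.0%, 79.5% to 81.9% and 78.0% to 79.2%. Thinning calls were 0 to 2, 0 to 1 and 0 to 0, against 0.0% to 2.74%, 0.00522% to 1.64% and 0.0% to 0.158%. Season calls were 47 to 60, 45 to 69 and 40 to 68, against 48.5% to 53.1%, 41.4% to 55.6% and 38.1% to 54.2%. The same step gave 74 to 93 shared members. Median drifts were 0.103 to 0.109 for ripening, 0.0946 to 0.144 for season and 0.0103 to 0.0123 for thinning. Of all values recomputed, 132 stayed within 1.5 times a count or within the replicate spread of a drift and 22 moved further. The 132 include thinning counts of 0 against 0. For the season drift the spread allowed was 0.069 on a value of 0.119. The tally is therefore no measure of how firm the results are. The values recomputed are counts and absolute sizes, which carry no sign. Directions did turn with quantile normalization: 83 members were higher on day 21 and 17 lower, against 34 and 66, and the ripening calls of 2013 were 42 higher and 31 lower, against 19 and 49.

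With the replicate number as a replicate block, ripening calls were 40, 68 and 62, against 75.3%, 84.1% and 81.8% of all tested. Thinning calls were 0, 0 and 0, against 0.179%, 1.8% and 0.0%. Season calls were 66, 73 and 73, against 58.0%, 59.3% and 57.7%. Over all pairs of same-numbered libraries of a season, the median correlation of their deviations was 0.010 in 2012, -0.0029 in 2013 and -0.0061 in 2014. The numbers were not taken as pairs. Pairs across thinning levels were included, so shared rows within a level were not examined. RPKM alone carries no counting error, and 3 libraries per group limit each group mean.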

Other observations

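One gene model that was even in 2013 had another level in 2014, and it had the largest season difference among the gene models chosen as stable. VIT_00s0187g00380, chosen among the 100 steadiest of 2013 and no member, had 30.3, 36.0 and 42.7 RPKM at the lowest, median and highest of the 54 libraries of 2013. In the 63 libraries of 2014 it had 8.57, 10.5 and 13.8 on days from -14 to 49, so the seasons did not overlap at any stage. In 2012 its 48 libraries had 7.81, 34.4 and 40.8 RPKM. The lowest of them, at 7.81, was that of 75% thinning, day 0, replicate 2, and the next were 19.2 at 50%, day -18, replicate 1 and 23.4 at 75%, day 21, replicate 2. These are the 3 libraries that stood apart. The library after them, 50%, day 0, replicate 2, was nearly as low at 23.6 and is not among the 3. Over days 0 and 21 the difference of 2014 from 2012 was -1.23 ± 0.09 (SE, log2, limma). Those days include the 2012 libraries at 7.81, 23.4 and 23.6 RPKM. The gene model was picked as the largest difference of this comparison, so no p is given for it. Over all days, 63 of 63 libraries of 2014 were below the 2012 median of 34.4.

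Complete separation of seasons had 1 direction. Of 20460 gene models tested, 198 had every 2014 library below every 2013 library and 0 had every one above. Against 2012 the numbers were 145 and 0. Between 2013 and 2012, 1 was separate, with 2013 below. Of the 2921 gene models past the RPKM minimum, 5 were separate for 2014 against 2013, 4 for 2014 against 2012 and 0 for 2013 against 2012. All days were pooled in these counts, which were made after the data were seen. Season cannot be told apart here from any other difference between the years, and no cause was tested.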
